A study of Mus musculus with 32 samples.

Results

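Potassium channel genes were taken as every protein-coding mouse gene whose symbol starts with Kcn, after the Ensembl identifiers of the 16 gene tables had been matched to GENCODE symbols. The rule found 94 genes among the 21519 protein-coding genes and 45706 gene identifiers of the tables, and another 5 Kcn-named genes that do not code for protein were left out. Of the 94 genes, 21 were expressed, which means a mean of at least 0.5 TPM (a transcript level scaled for gene length and library size) in at least 1 of the 4 groups. That was 22.3% of the potassium channel genes, against 57.6% of all protein-coding genes. The other 73 lay under the threshold: 48 had a count in some library and 25 had none in any of the 16. Kcnd3 was just inside the threshold, with a highest group mean of 0.548 TPM, and Kcnj14 just outside it, with 0.368 TPM.

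Potassium channels let potassium leave the cell along its gradient and so set the membrane potential, which in blood cells is tied to calcium entry and to cell volume. Most channels are assemblies of pore-forming subunits that open with voltage, with calcium or with G protein signals, or leak at rest. Accessory subunits and electrically silent modifier subunits join the pore-forming ones and change when they open or how many reach the surface. Blood cells are best known for a calcium-activated channel (Kcnn4) and a voltage-gated channel (Kcna3), while many other members are known from heart and brain.

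RNA was measured in haematopoietic stem and progenitor cells (HSPCs) sorted from mouse marrow as lineage-negative, Kit-positive, Sca1-positive cells. All sorted cells descended from wild-type C57BL/6J marrow carrying both CD45 alleles (CD45.1+/2+), of which 800000 cells had been given to lethally irradiated C57BL/6J recipients (CD45.2) together with 200000 partner cells (CD45.1). In the AF9_Experienced groups, called experienced below, the partner marrow was homozygous for the inducible human leukaemia fusion hMLL-AF9 and for its doxycycline-dependent activator rtTA, and in the naive groups it was hMLL-AF9-null and homozygous for rtTA alone. The remission model followed 6 to 8 weeks after transplantation, with 5 weeks of doxycycline and then 4 weeks without it, and the mice received phosphate-buffered saline (PBS) or the bacterial product lipopolysaccharide (LPS) 24 h before sacrifice. The sequenced cells were thus of wild-type origin in every group, and all recipients were irradiated and transplanted. The sources used here give neither the age of the mice, the LPS dose, nor what drives rtTA, and they do not say separately whether naive mice received doxycycline. There were 4 tables in each of the 4 groups (naive PBS, naive LPS, experienced PBS, experienced LPS). The labels do not say that replicates were separate mice, so p-values measure only the spread between these samples.

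Libraries held 7718857 to 22264672 expected counts. The mitochondrial share of counts ran from 1.91% to 7.30%, and 2 libraries stood above the rest, experienced PBS replicate 4 (5.94%) and experienced LPS replicate 4 (7.30%). The sort markers were present: Kit averaged 203 TPM and Ly6a, which encodes Sca1, 60.4 TPM in naive PBS. Ly6a averaged 185 TPM in naive LPS, 53.7 TPM in experienced PBS and 172.5 TPM in experienced LPS. Whether the sort took the same kinds of cells after LPS as after PBS was not tested. Within the experienced PBS group, replicates 3 and 4 differed from replicates 1 and 2 in cell type markers: the summed level of 6 lymphoid-primed markers (Dntt, Flt3, Il7r, Rag1, Satb1, Notch1) was 412, 347, 207 and 121 TPM in replicates 1 to 4, and that of 6 erythroid markers 21.5, 26.5, 86.3 and 238 TPM. The sums of the neutrophil markers were 697, 594, 1439 and 2368 TPM in the same order, and those of the monocyte and macrophage markers 59.4, 43.3, 152 and 142 TPM. Sums of 8 HSPC markers (Kit, Ly6a, Cd34, Flt3, Procr, Slamf1, Mecom, Hlf) were 1041, 963, 818 and 730 TPM. Those of 6 basophil and mast cell markers were 127, 148, 156 and 236 TPM. B cell and megakaryocyte sums did not separate these replicates. Several potassium channel genes separated replicates 3 and 4 from replicates 1 and 2 within that group, as given with their values below. The part of these markers in the results was not tested.

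A small set of genes carried most of the potassium channel RNA. Kcnab2, Kcnn4 and Kcna3 together made up 71.3% of the summed level of all 94 genes in naive PBS, 77.7% in naive LPS, 74.2% in experienced PBS and 76.7% in experienced LPS. The summed level was 231 ± 41.6 TPM (SD, n = 4) in naive PBS, 188 ± 22.8 in naive LPS, 210 ± 43.9 in experienced PBS and 185 ± 36.8 in experienced LPS. Without the top 3 genes it was 66.2 ± 11.3 TPM in naive PBS and 41.8 ± 2.78 TPM in naive LPS. In the experienced groups the rest amounted to 54.5 ± 14.9 TPM after PBS and 42.3 ± 4.53 TPM after LPS.

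At rest in naive mice the order of levels had 3 clear steps. The highest gene, Kcnab2, lay above Kcnn4 in all 4 libraries. Kcnn4 and Kcna3 overlapped, and both lay above Kcnk5 in every library. From Kcnk5 downwards through Kcnk12, Kcng1, Kcnip3, Kcnh2 and Kcnq5, each gene overlapped its neighbour, and Kcnq5 was separated from Kcnd1. Below that, neighbours overlapped through Kcns1, Kcnk6, Kcnrg, Kcng2, Kcnj2, Kcne3, Kcnab1, Kcnj5 and Kcnd3. In each group 16 to 19 of the genes reached the threshold, and 14 reached it in all 4.

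**Figure D1:**
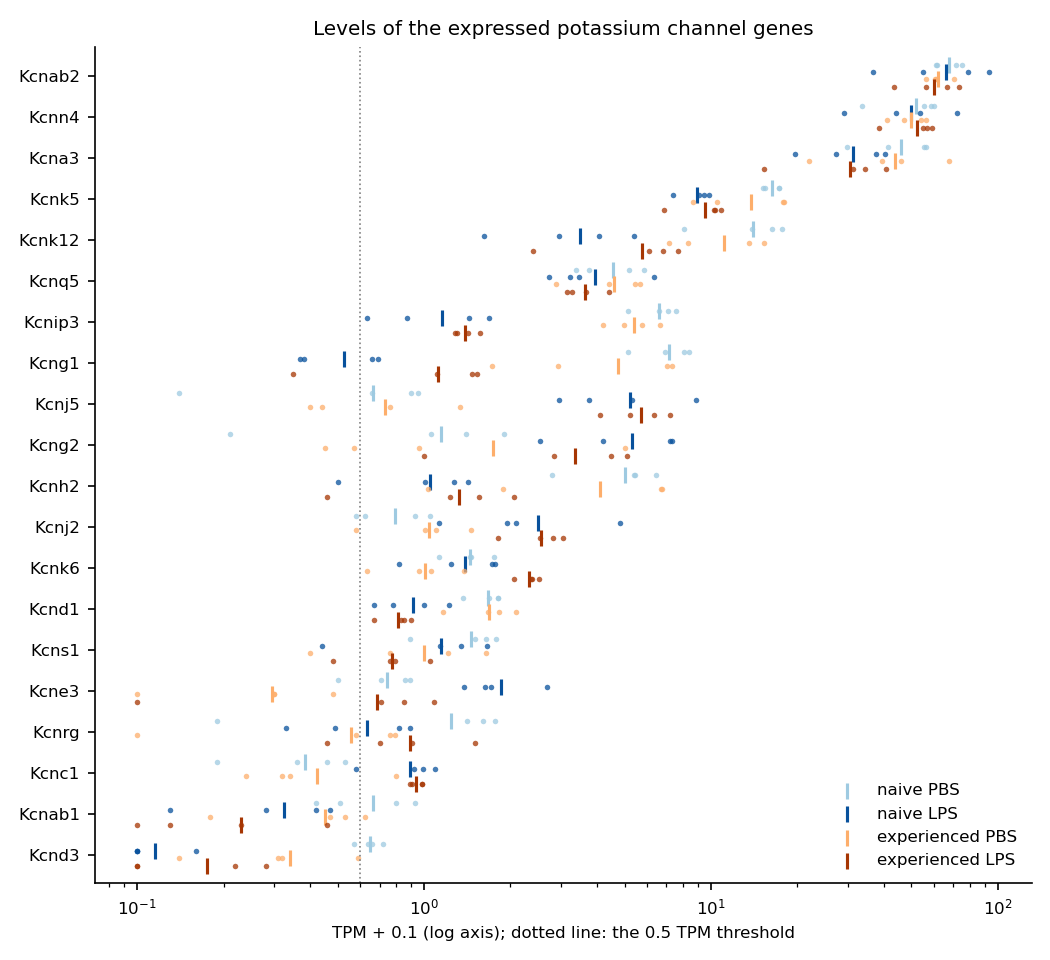
Levels of the expressed potassium channel genes reported here. The log axis gives TPM plus 0.1, each point is 1 library, each vertical bar the mean of a group of 4, and the dotted line the threshold of 0.5 TPM. Kcnab2, Kcnn4 and Kcna3 sit at the top in all 4 groups, while the colours separate most in Kcnip3, Kcng1, Kcnj5 and Kcnd3.

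LPS changed potassium channel genes of most families, in both directions, and left the 3 most abundant genes without a call. Of the 29 potassium channel genes with enough counts to be tested (the 21 expressed ones and 8 of those under the threshold), 11 passed in naive mice, 5 higher (among them Kcnj5, Kcng2, Kcnj2 and Kcnc1) and 6 lower (Kcnd3, Kcng1, Kcnip3, Kcnh2, Kcnk12, Kcnk5). A gene passed at a Benjamini-Hochberg adjusted p under 0.05 in edgeR's quasi-likelihood test over all 15186 genes tested. Over all those genes 21.7% passed in naive mice, 9.81% higher and 11.9% lower. In experienced mice 6 of the 29 passed, Kcnj5, Kcnk6 and Kcnj2 higher and Kcnip3, Kcnh2 and Kcng1 lower, against 12.8% of all genes, 4.52% higher and 8.26% lower. The called genes thus made up 37.9% of the tested members in naive mice and 20.7% in experienced mice. Without experienced PBS replicate 4 the count in experienced mice was 11 of 29. The added genes were Kcnc1, Kcng2 and Kcne3 higher and Kcnd1 and Kcnab1 lower. The count over all genes rose as well without that library, to 2292 of 15546 from 1940 of 15186. Whether the channel genes rose beyond that was not tested.

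Both LPS comparisons called Kcnj5 and Kcnj2 higher and Kcng1, Kcnh2 and Kcnip3 lower. The comparisons share no libraries, but the spread was estimated for both in a common fit of all 16 libraries. These 5 genes are 5 of the 11 called in naive and 5 of the 6 called in experienced mice. The overlap over all tested genes was not counted, so whether 5 is many is not known. The median log2 change of the 21 expressed genes was −0.24 in naive and −0.05 in experienced mice, against 0.02 and −0.02 over all genes. Their median absolute change was 1.79 and 1.08, against 0.39 and 0.34 over all genes. A gene that reached the expression threshold in only some groups had to differ between groups, so these medians describe the 21 genes and support nothing further. Among the 14 genes expressed in all 4 groups, 3 passed higher and 4 lower in naive mice, and 3 higher and 2 lower in experienced mice. In RNA of sorted cells, fewer cells of a type and less RNA per cell cannot be told apart.

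**Figure D2:**
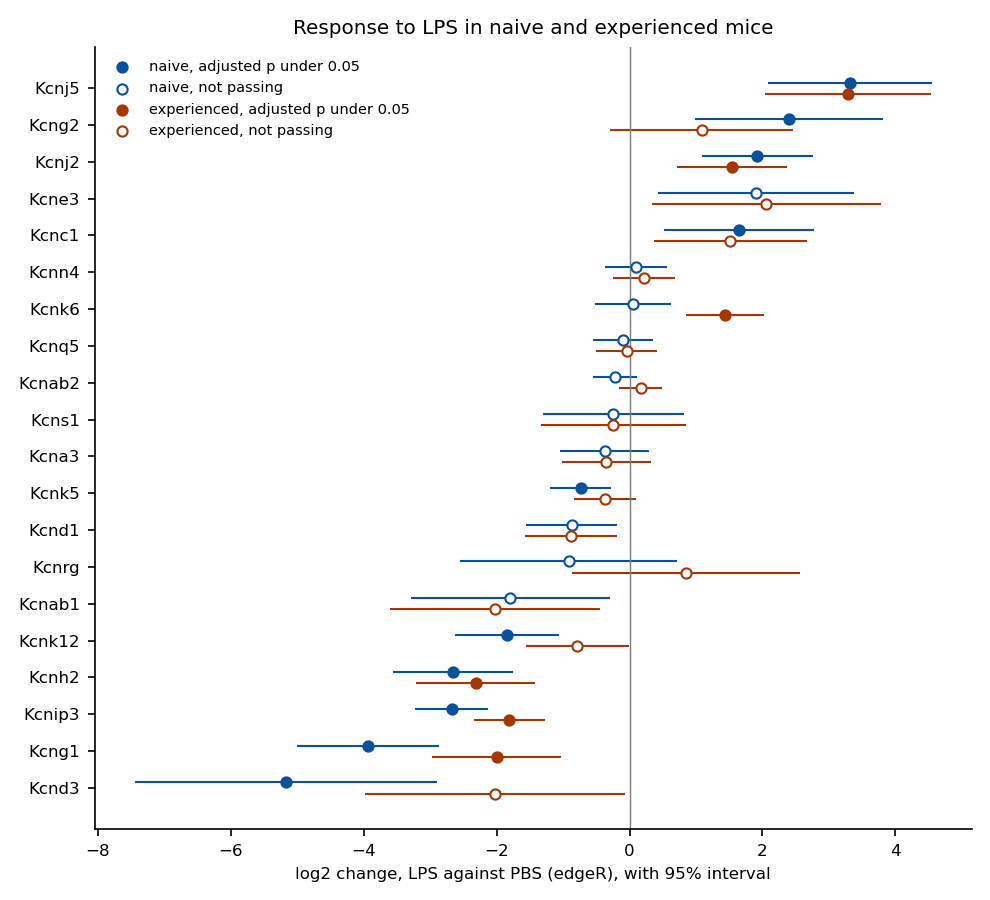
Log2 change after LPS against PBS with its 95% interval for the expressed genes reported here, naive in blue and experienced in red-brown, from edgeR's fit. Filled points passed at an adjusted p under 0.05, open points did not. Kcnj5 lies highest in both, Kcnd3 and Kcng1 lowest in naive mice, and the intervals of Kcnn4, Kcnq5, Kcnab2 and Kcna3 include 0 in both.

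**Figure D3:**
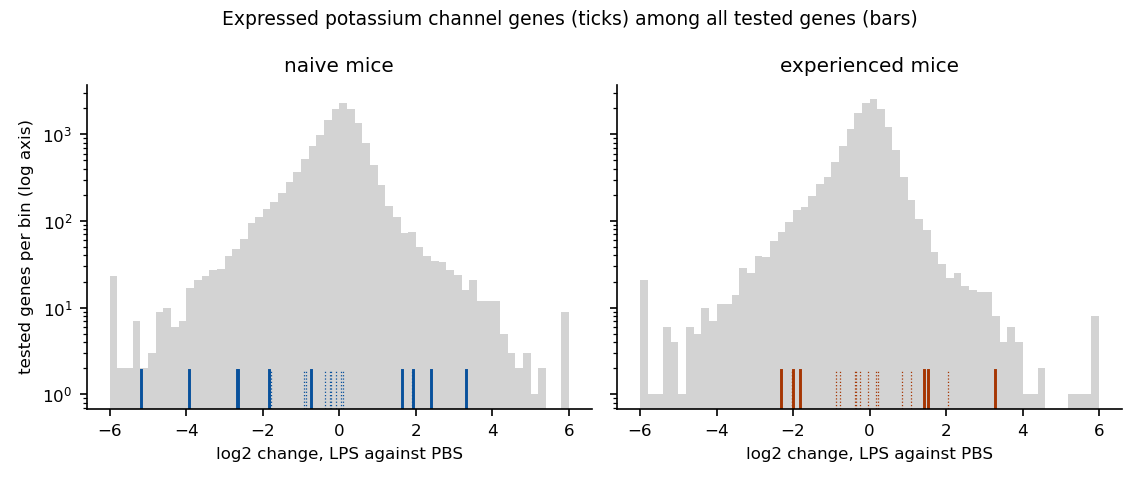
Where the expressed genes reported here (ticks, solid where they passed) fall among the log2 changes of all 15186 tested genes (grey bars, counts per bin on a log axis), for naive mice on the left and experienced mice on the right. Changes beyond the ends of the axis are gathered in the outermost bars.

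Among the voltage-gated pore subunits of the Kcna to Kcnd families, 5 of 17 genes were expressed, and in naive mice 2 passed higher and 1 lower. Kcna3, the channel of lymphocytes, was by far the most abundant of them. In naive mice Kcna3 was at 41.5, 55.5, 56.3 and 29.7 TPM after PBS and at 37.4, 19.6, 27.2 and 40.2 TPM after LPS. In experienced mice Kcna3 was at 67.4, 46.0, 39.3 and 21.8 TPM after PBS and at 40.7, 31.2, 34.4 and 15.2 TPM after LPS. The ranges overlapped in both comparisons, and the log2 change was −0.37 ± 0.32 (SE; edgeR adjusted p = 0.431) in naive and −0.35 ± 0.32 (edgeR adjusted p = 0.518) in experienced mice.

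Kcnc1 encodes a channel that opens fast at strong depolarisation, known from fast-spiking neurons. It was at 0.26, 0.43, 0.36 and 0.09 TPM in naive PBS and at 0.82, 0.48, 0.89 and 0.99 TPM in naive LPS. The ranges did not overlap, and the log2 change was 1.65 ± 0.53 (SE; edgeR adjusted p = 0.0367). Leaving out any 1 of 7 of the 8 naive libraries ended this call, with adjusted p-values of 0.0518 to 0.1. In experienced mice Kcnc1 was at 0.24, 0.14, 0.22 and 0.70 TPM after PBS and at 0.88, 0.81, 0.79 and 0.88 TPM after LPS. The LPS libraries again lay above the PBS libraries, but the change of 1.52 ± 0.54 did not pass (edgeR adjusted p = 0.0761). Without experienced PBS replicate 4, the highest of its group, it was 2.55 with an edgeR adjusted p of 0.00181. Defining markers of neurons and muscle were low throughout: 6 such genes (Snap25, Syt1, Rbfox3, Map2, Actn2, Myh6) summed to 0.88 to 1.11 TPM in naive PBS, 0.23 to 1.05 TPM in naive LPS, 0.92 to 4.04 TPM in experienced PBS and 0.08 to 0.81 TPM in experienced LPS.

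Kcnd3 and Kcnd1 encode pore subunits of the rapidly inactivating A-type current. Kcnd3 was at 0.54, 0.47, 0.56 and 0.62 TPM in naive PBS, and at 0.06 TPM in naive LPS replicate 3 and 0 in the other 3 LPS libraries. The 4 naive PBS libraries held 159 counts and the 4 naive LPS libraries 3, a ratio per total counts of 41.6 with a 95% interval of 14 to 204 (exact binomial, counting error only), and the fall passed (edgeR adjusted p = 0.00342). In experienced mice Kcnd3 was at 0.49, 0.21, 0.04 and 0.22 TPM after PBS and at 0.18, 0, 0 and 0.12 TPM after LPS. The summed counts there were 61 and 11, and the difference did not pass (edgeR adjusted p = 0.164). Kcnd1 averaged 1.57 ± 0.21 TPM (SD, n = 4) in naive PBS and 0.818 ± 0.24 in naive LPS, without overlap, and its log2 change of −0.87 ± 0.32 did not pass (edgeR adjusted p = 0.0633). In experienced mice Kcnd1 averaged 1.59 ± 0.39 TPM after PBS and 0.713 ± 0.099 after LPS, again without overlap and without passing (log2 change −0.88 ± 0.33, edgeR adjusted p = 0.0874).

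The electrically silent modifier subunits, which do not conduct on their own and pair with pore subunits such as Kcnb2, had 3 expressed genes of 10. Kcng1 was at 8.29, 7.99, 6.80 and 5.05 TPM in naive PBS and at 0.56, 0.59, 0.28 and 0.27 TPM in naive LPS. Each LPS library lay far below each PBS library (log2 change −3.93 ± 0.51, SE; edgeR adjusted p = 9.3e-05). In experienced mice Kcng1 was at 7.22, 6.94, 1.62 and 2.84 TPM after PBS and at 1.01, 1.37, 1.43 and 0.25 TPM after LPS. Replicates 3 and 4 of experienced PBS were below replicates 1 and 2, and replicate 3 lay just above the highest LPS library. Replicates 3 and 4 are the libraries with lower lymphoid-primed and HSPC marker sums. Their erythroid, neutrophil, monocyte, and basophil and mast cell sums were higher. The groups still did not overlap, and the change of −2 ± 0.46 passed (edgeR adjusted p = 0.00938). Kcng1 lies at chr2:168260117-168281736 on the minus strand of GRCm38.

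Kcng2, of the same family as Kcng1, went the other way in naive mice. It was at 0.96, 1.3, 1.8 and 0.11 TPM in naive PBS and at 4.12, 2.43, 7.23 and 7.13 TPM in naive LPS. The groups did not overlap and the log2 change was 2.40 ± 0.67 (SE; edgeR adjusted p = 0.0188). Without naive PBS replicate 4, the lowest library, the rise narrowly missed the threshold (2.09, edgeR adjusted p = 0.0506). In experienced mice Kcng2 was at 0.47, 0.35, 0.86 and 4.90 TPM after PBS and at 5.00, 0.90, 2.73 and 4.38 TPM after LPS. Here experienced PBS replicate 4 reached the LPS level, and the change of 1.08 ± 0.65 did not pass (edgeR adjusted p = 0.303). Without that library it was 2.24 and passed (edgeR adjusted p = 0.0206). A gene model on the same strand, Gm37015, overlaps Kcng2 and was at 0 to 8.27 TPM, highest in experienced LPS replicate 4.

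Group means of Kcnb2, a pore subunit that the modifiers can join, did not exceed 0.085 TPM. Kcns1, the third modifier, averaged 1.36 ± 0.39 TPM (SD, n = 4) in naive PBS, 1.05 ± 0.52 in naive LPS, 0.903 ± 0.54 in experienced PBS and 0.67 ± 0.23 in experienced LPS. Its log2 change did not pass in naive (−0.24 ± 0.50, edgeR adjusted p = 0.772) or experienced mice (−0.24 ± 0.52, edgeR adjusted p = 0.803).

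**Figure D4:**
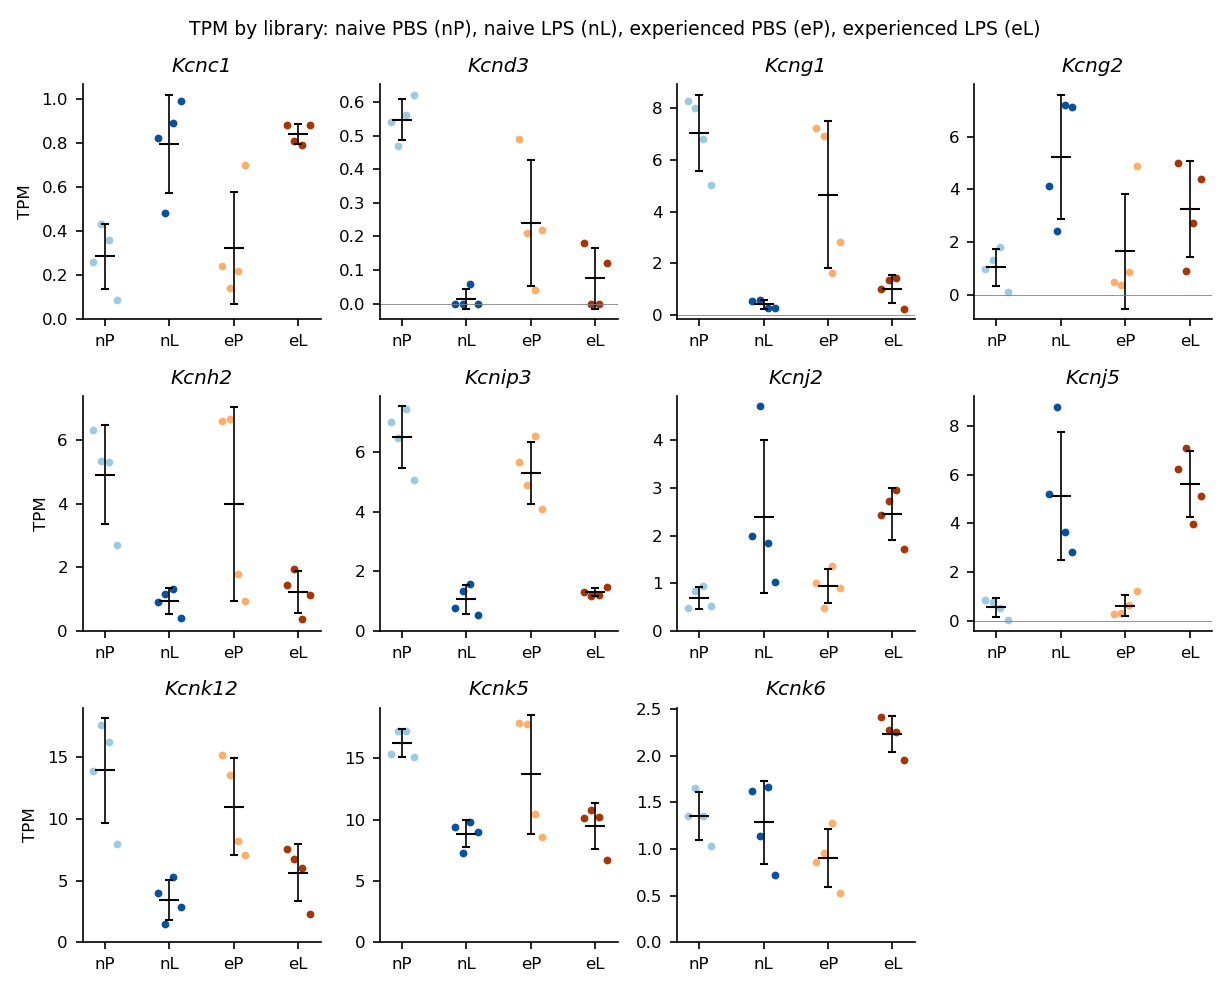
TPM in every library for the genes reported here that passed in at least 1 LPS comparison. Points are libraries in replicate order, horizontal bars group means and error bars 1 SD (n = 4), on linear axes that differ between panels. Kcng1, Kcnh2 and Kcnip3 are low and Kcnj2 and Kcnj5 high after LPS in both kinds of mice, and experienced PBS splits into higher and lower libraries in Kcng1, Kcnh2 and Kcnk5.

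Of the 8 ether-a-go-go genes only Kcnh2, the channel of the rapid repolarising current of the heart, was expressed, and it fell in both comparisons. In naive mice Kcnh2 was at 6.34, 5.34, 5.31 and 2.7 TPM after PBS and at 0.91, 1.17, 1.32 and 0.40 TPM after LPS. The groups were separate, and the log2 change was −2.66 ± 0.43 (SE; edgeR adjusted p = 0.00051). In experienced mice Kcnh2 was at 6.6, 6.67, 1.78 and 0.93 TPM after PBS and at 1.45, 1.96, 0.36 and 1.13 TPM after LPS. Experienced PBS replicates 3 and 4 lay within the LPS range, so the groups overlapped, and the change of −2.32 ± 0.42 passed on counts (edgeR adjusted p = 0.00212). With limma on log2(TPM + 1) that change was −0.97 and did not pass (adjusted p = 0.156). Kcnh2 lies at chr5:24319589-24351604 on the minus strand.

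Of the 5 Kcnq genes only Kcnq5, a subunit of the slow M-type current, was expressed. It was at 3.29, 5.07, 5.75 and 3.65 TPM in naive PBS and at 3.37, 6.25, 2.63 and 3.12 TPM in naive LPS. In experienced mice Kcnq5 was at 5.58, 5.33, 4.32 and 2.79 TPM after PBS and at 3.04, 3.58, 3.19 and 4.31 TPM after LPS. The groups overlapped in both comparisons, with log2 changes of −0.10 (95% interval −0.56 to 0.36) in naive and −0.05 (−0.51 to 0.42) in experienced mice. Neither passed (edgeR adjusted p = 0.786 and 0.915). Gene models on the same strand, Gm38243, Gm7658 and Gm36949, overlap Kcnq5 and had means over all libraries of 1.16, 0.74 and 0.31 TPM.

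The group of calcium- and sodium-activated channels (Kcnma1, Kcnn, Kcnt and Kcnu) had 1 expressed gene of 8, Kcnn4. This is the intermediate-conductance channel that red cells and lymphocytes use to lose potassium when calcium rises. In naive mice Kcnn4 was at 55.2, 60, 58.3 and 33.6 TPM after PBS and at 53.4, 29.1, 71.9 and 43.9 TPM after LPS. In experienced mice Kcnn4 was at 56.4, 54.0, 41.2 and 46.9 TPM after PBS and at 58.8, 54.9, 56.4 and 38.5 TPM after LPS. The groups overlapped throughout, and the log2 changes were 0.09 (95% interval −0.37 to 0.56; edgeR adjusted p = 0.805) and 0.22 (−0.24 to 0.69; edgeR adjusted p = 0.56). The large-conductance channel gene Kcnma1 had no count in any library.

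The inward rectifiers, which pass potassium inwards more readily than outwards and hold the resting potential, had calls in the higher direction only. Both expressed genes of its 15, Kcnj5 and Kcnj2, passed higher in naive and in experienced mice. The summed level of the family was 2.02 ± 0.50 TPM (SD, n = 4) in naive PBS and 8.29 ± 4.24 in naive LPS, and 2.26 ± 0.84 in experienced PBS and 8.78 ± 1.25 in experienced LPS. No library after LPS overlapped one after PBS in this sum, which ran from 1.33 to 3.23 TPM after PBS and from 4.95 to 14.4 TPM after LPS.

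Kcnj5 encodes a G protein-gated inward rectifier that in the heart pairs with Kcnj3. It was at 0.85, 0.80, 0.56 and 0.04 TPM in naive PBS and at 5.21, 8.78, 3.65 and 2.85 TPM in naive LPS. The groups were well apart, and the log2 change was 3.32 ± 0.58 (SE; edgeR adjusted p = 0.00107). In experienced mice Kcnj5 was at 0.30, 0.34, 0.66 and 1.23 TPM after PBS and at 6.24, 7.10, 3.99 and 5.14 TPM after LPS. Every LPS library again exceeded every PBS library, with a change of 3.29 ± 0.59 (edgeR adjusted p = 0.00184). Its possible partners were nearly silent: group means of Kcnj3 did not exceed 0.065 TPM and those of Kcnj6 0.025 TPM, and Kcnj9 had no count in any library. Kcnj5 lies at chr9:32314707-32344350 on the minus strand.

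Kcnj2, the classical strong inward rectifier, moved the same way from a similar resting level. It was at 0.48, 0.83, 0.95 and 0.52 TPM in naive PBS and at 2, 4.72, 1.85 and 1.03 TPM in naive LPS. The lowest LPS library lay just above the highest PBS library, and the log2 change was 1.92 ± 0.40 (SE; edgeR adjusted p = 0.00317). In experienced mice Kcnj2 was at 1, 0.48, 1.36 and 0.91 TPM after PBS and at 2.43, 2.72, 2.96 and 1.71 TPM after LPS. The groups did not overlap, and the change was 1.54 ± 0.39 (edgeR adjusted p = 0.0166). Without experienced PBS replicate 2, the lowest library, the change was 1.31 and did not pass (edgeR adjusted p = 0.0574). Kcnj2 lies at chr11:111066164-111076821 on the plus strand.

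Kcnj5, Kcnj2 and Kcnip3 are the genes called in both comparisons for which RefSeq (GRCm38.p6) gives a promoter window of 250 bases before to 50 bases after a start that matches the annotated gene start within 50 bases. These windows are shown because the first 2 genes rose and the third fell in the same LPS libraries. They are printed 5′ to 3′ on the gene's strand, with matches in capitals to motifs searched on both strands. The windows are chr9:32344295-32344594 (minus strand) for Kcnj5, chr11:111065914-111066213 (plus strand) for Kcnj2 and chr2:127522045-127522344 (minus strand) for Kcnip3.
Kcnj5: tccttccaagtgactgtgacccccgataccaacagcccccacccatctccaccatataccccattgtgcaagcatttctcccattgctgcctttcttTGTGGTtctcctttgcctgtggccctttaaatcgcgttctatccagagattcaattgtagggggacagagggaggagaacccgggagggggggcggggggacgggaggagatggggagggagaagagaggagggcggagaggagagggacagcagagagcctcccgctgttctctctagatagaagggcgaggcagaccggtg
Kcnj2: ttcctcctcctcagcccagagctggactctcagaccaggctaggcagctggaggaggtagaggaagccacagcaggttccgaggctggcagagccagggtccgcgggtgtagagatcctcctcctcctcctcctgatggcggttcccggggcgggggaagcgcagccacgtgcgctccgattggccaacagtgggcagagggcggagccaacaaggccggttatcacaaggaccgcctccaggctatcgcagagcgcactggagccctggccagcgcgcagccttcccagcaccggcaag
Kcnip3: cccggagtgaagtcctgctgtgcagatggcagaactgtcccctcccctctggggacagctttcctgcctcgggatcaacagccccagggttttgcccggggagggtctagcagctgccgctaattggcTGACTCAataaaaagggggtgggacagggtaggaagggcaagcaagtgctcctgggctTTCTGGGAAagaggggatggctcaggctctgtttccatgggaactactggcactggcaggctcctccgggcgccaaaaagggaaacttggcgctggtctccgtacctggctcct
The Kcnj5 window holds 1 Runx site (TGTGGT, found in 16.7% of 32544 promoter windows of this length). The Kcnip3 window holds an AP-1 site (TGANTCA, 7.79% of windows) and a Stat site (TTCNNNGAA, 8.33%), which do not overlap each other. The Kcnj2 window holds none of the motifs searched. No match was found in the 3 windows to an interferon-stimulated response element (TTTC, any 2 bases, then TTTC; 3.45% of windows), an NF-kappaB site (GGG, any 2 bases, then TTTCC; 1.61%) or a Gata site (AGATAA, 11.2%). A match is a run of letters, not a measured binding site. Of the 21 expressed genes, 16 had a RefSeq window and 11 had one at the annotated gene start, of which 3 held a match to any of these motifs.

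The tandem-pore-domain channels, which carry leak currents at rest, had 3 expressed genes of 14. Their summed level was 32.1 ± 5.43 TPM (SD, n = 4) in naive PBS and 13.8 ± 2.86 in naive LPS, and 25.7 ± 8.87 in experienced PBS and 17.6 ± 4.06 in experienced LPS. Kcnk12, whose protein gives little current on its own, was at 13.9, 17.6, 16.2 and 7.95 TPM in naive PBS and at 3.96, 1.52, 5.30 and 2.86 TPM in naive LPS. The groups did not overlap and Kcnk12 fell (log2 change −1.85 ± 0.37, SE; edgeR adjusted p = 0.00286). In experienced mice Kcnk12 was at 15.2, 13.5, 8.21 and 7.05 TPM after PBS and at 7.57, 6.73, 5.98 and 2.30 TPM after LPS. These groups overlapped by 1 library on each side, and the change of −0.78 ± 0.36 did not pass (edgeR adjusted p = 0.17).

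Kcnk5, a leak channel that opens at alkaline pH, was at 15.3, 17.2, 17.2 and 15.1 TPM in naive PBS and at 9.36, 7.29, 9.78 and 8.97 TPM in naive LPS. All LPS libraries lay below all PBS libraries, with a log2 change of −0.73 ± 0.22 (SE; edgeR adjusted p = 0.025). Leaving out naive PBS replicate 1, 2 or 4 or naive LPS replicate 1 or 2 ended this call (adjusted p-values of 0.0504 to 0.0844). In experienced mice Kcnk5 was at 17.8, 17.8, 10.4 and 8.57 TPM after PBS and at 10.1, 10.8, 10.2 and 6.74 TPM after LPS. Experienced PBS replicates 3 and 4 lay at the LPS level, and the change of −0.37 ± 0.22 did not pass (edgeR adjusted p = 0.289).

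Kcnk6, a weak leak channel of the same family, passed in experienced mice and not in naive mice. It was at 1.35, 1.66, 1.36 and 1.03 TPM in naive PBS and at 1.62, 1.14, 1.67 and 0.72 TPM in naive LPS. These overlapped, with a log2 change of 0.05 ± 0.27 (SE; edgeR adjusted p = 0.923). In experienced mice Kcnk6 was at 0.86, 0.96, 1.28 and 0.53 TPM after PBS and at 2.42, 2.28, 2.26 and 1.96 TPM after LPS. The groups were separate, and the change was 1.44 ± 0.28 (edgeR adjusted p = 0.00299).

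Accessory subunits and regulators had 5 expressed genes of 17, and only Kcnip3 passed. Kcnip3 encodes a calcium-binding protein that joins Kcnd channels and is also known as a transcriptional repressor. In naive mice it was at 7, 6.49, 7.45 and 5.06 TPM after PBS and at 0.77, 1.33, 1.59 and 0.53 TPM after LPS. All LPS libraries were far below the PBS libraries, and the log2 change was −2.68 ± 0.26 (SE; edgeR adjusted p = 9.54e-06), the lowest adjusted p among the potassium channel genes. In experienced mice Kcnip3 was at 5.66, 4.89, 6.54 and 4.11 TPM after PBS and at 1.32, 1.18, 1.20 and 1.47 TPM after LPS. Here too the groups were separate, and experienced PBS replicates 3 and 4 stayed with replicates 1 and 2 (change −1.81 ± 0.25, edgeR adjusted p = 0.000326). Kcnip3 lies at chr2:127456498-127522094 on the minus strand. A gene model on the same strand, Gm22613, overlaps it and was at 0 to 4.37 TPM, highest in experienced PBS replicate 4.

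Kcnab2, a beta subunit with an oxidoreductase fold that binds Kcna channels from inside the cell, was the most abundant potassium channel gene. In naive mice Kcnab2 was at 61.6, 71.5, 75.2 and 61.0 TPM after PBS and at 78.8, 93.5, 54.7 and 36.7 TPM after LPS. In experienced mice Kcnab2 was at 70.4, 60.4, 60.8 and 56.2 TPM after PBS and at 73.4, 56.2, 66.3 and 43.5 TPM after LPS. The spread was wider after LPS, all groups overlapped, and the log2 changes were −0.22 (95% interval −0.55 to 0.10; edgeR adjusted p = 0.327) and 0.17 (−0.16 to 0.50; edgeR adjusted p = 0.522).

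The other 3 accessory genes were lower. Kcnab1, a relative of Kcnab2, averaged 0.565 ± 0.24 TPM (SD, n = 4) in naive PBS and 0.225 ± 0.15 in naive LPS, and 0.35 ± 0.19 in experienced PBS and 0.13 ± 0.16 in experienced LPS, and did not pass (edgeR adjusted p = 0.0794 and 0.0841). Kcne3, a single-pass subunit that keeps Kcnq1 open, averaged 0.64 ± 0.18 TPM in naive PBS and 1.75 ± 0.58 in naive LPS. Those groups did not overlap, and the log2 change of 1.90 ± 0.70 missed the threshold (edgeR adjusted p = 0.0618), as did 2.06 ± 0.81 in experienced mice (edgeR adjusted p = 0.107). Kcnq1 itself did not exceed 0.0375 TPM in any group mean. Kcnrg, a soluble regulator of channel assembly, averaged 1.14 ± 0.72 TPM in naive PBS and 0.533 ± 0.27 in naive LPS, and 0.458 ± 0.32 and 0.793 ± 0.44 in the experienced groups. Its values are uncertain, because Dleu2, at a mean of 31.4 TPM, overlaps it on the opposite strand and whether the counting used strand was not stated in the labels or headers.

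Some lists of cell type markers moved with LPS beside these genes, and others had few or no calls. Of 6 basophil and mast cell markers (Fcer1a, Ms4a2, Cpa3, Gata2, Mcpt8, Il1rl1), 6 passed higher in naive and 5 in experienced mice, and their summed level was 118 to 169 TPM in naive PBS, 330 to 690 in naive LPS, 127 to 236 in experienced PBS and 280 to 492 in experienced LPS. Of the 6 lymphoid-primed markers, 6 passed lower in naive and 5 in experienced mice, with sums of 267 to 333 TPM in naive PBS, 29.2 to 39.9 in naive LPS, 121 to 412 in experienced PBS and 33.8 to 58.6 in experienced LPS. Of 5 tested erythroid markers, 4 passed higher in naive and 0 in experienced mice, with sums of 10.4 to 44.9, 95.2 to 226, 21.5 to 238 and 71.7 to 152 TPM in the same order. Of 5 tested B cell markers 2 passed lower in naive mice and 1 in experienced mice, and of 8 HSPC markers 5 passed lower and 1, Ly6a, higher in each. No defining marker of these lists was at 0 in all libraries, and their part in the potassium channel results was not tested.

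Between experienced and naive mice no potassium channel gene differed past the threshold. In edgeR 0 of 29 passed after PBS, 0 after LPS and 0 in the interaction, which compares the LPS response of experienced with that of naive mice, and over all genes 0% passed in each. At an unadjusted p under 0.05 there were 2, 4 and 5 of the 29 genes, against 2.97%, 3.23% and 4.58% of all tested genes, and DESeq2 called 0 of them as well. The lowest edgeR adjusted p among the potassium channel genes was 0.988 after PBS, 0.9999 after LPS and 0.884 in the interaction.

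Some responses to LPS differed between the kinds of mice before adjustment. For Kcnk6 the interaction was 1.39 ± 0.38 (SE; unadjusted p = 0.00224, edgeR adjusted p = 0.884), with a log2 change of 0.05 in naive and 1.44 in experienced mice. For Kcng1 it was 1.93 ± 0.65 (unadjusted p = 0.00886), and for Kcnip3 0.87 ± 0.35 (unadjusted p = 0.0253), both at the same edgeR adjusted p of 0.884. For Kcnd3 it was 3.15 ± 1.45 (unadjusted p = 0.0452, edgeR adjusted p = 0.884), with 3 counts in naive LPS and 11 in experienced LPS. None of these passed, so the genes called in only 1 kind of mouse were not shown to differ between the kinds. Nor does this show that they were alike: the 95% interval of the interaction reached from 0.57 to 2.20 for Kcnk6. Among genes called in both comparisons the interval was also wide, −1.67 to 1.61 for Kcnj5, −0.88 to 1.57 for Kcnh2 and −1.53 to 0.77 for Kcnj2.

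In a list of genes linked to potassium handling, not all of which move potassium, calls also went in both directions. Of 38 genes for the sodium-potassium pump, potassium-chloride cotransport and its kinases, volume-regulated channels, auxiliary subunits and calcium entry, 31 were tested. In naive mice 4 passed higher and 4 lower, with a median log2 change of 0.06 over the list, and in experienced mice 2 passed higher and 4 lower, with a median of −0.02. Over all tested genes 21.7% passed in naive and 12.8% in experienced mice. These counts moved with single libraries, to 4 and 14 in naive and to 2 in experienced mice at the extremes, without naive PBS replicate 2 or 4, experienced LPS replicate 4, and experienced LPS replicate 1, 2 or 3. Lrrc8d, a subunit of the volume-regulated anion channel, fell by 0.63 on the log2 scale in naive mice (edgeR adjusted p = 0.00088) and by 0.40 in experienced mice (edgeR adjusted p = 0.0232). Atp1b1, one of the pump's beta subunits, fell from 1.78 ± 0.59 to 0.863 ± 0.73 TPM (SD, n = 4) in naive mice (log2 change −1.64, edgeR adjusted p = 0.0124) and from 2.07 ± 0.79 to 0.763 ± 0.45 TPM in experienced mice (−1.54, edgeR adjusted p = 0.0246). Atp1b2, another beta subunit, named after its values were seen, rose in naive mice from 6.26 ± 3.41 to 64.4 ± 37.5 TPM without overlap (log2 change 3.51, edgeR adjusted p = 0.0185). In experienced mice Atp1b2 was at 39.9 ± 60.2 TPM after PBS and 47.8 ± 51.1 TPM after LPS, with a log2 change of 0.29 that did not pass (edgeR adjusted p = 0.865).

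Slc12a7, a potassium-chloride cotransporter that lowers cell volume by letting both ions out together, fell by 0.75 on the log2 scale in naive mice (edgeR adjusted p = 0.00347) and by 0.50 in experienced mice (edgeR adjusted p = 0.0465). Oxsr1, a kinase that acts on cotransporters of this family, rose by 0.42 in naive mice (edgeR adjusted p = 0.015) and by 0.36 in experienced mice (edgeR adjusted p = 0.0433). The proton channel Hvcn1 rose in experienced mice, from 8.37 ± 1.13 to 12 ± 1.24 TPM (log2 change 0.69, edgeR adjusted p = 0.0165). Its log2 change of 0.18 in naive mice did not pass (edgeR adjusted p = 0.498). Between experienced and naive mice 0 of the 31 passed in edgeR after PBS, after LPS or in the interaction, and DESeq2 called 0 in each.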

How the data were processed

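Groups and replicate numbers came from the sample titles. The labels list 32 samples, 2 technical replicates for each biological replicate, while there is 1 table per biological replicate (16, 4 per group). The sources do not state if reads of the technical replicates were pooled, and the library kit the labels name is one for single cells although each table holds 1 value per gene. Reads were processed with Trim Galore 0.6.7, STAR 2.7.10a and RSEM 1.3.1 on GRCm38, per the submitters' processing notes. The deposited tables hold RSEM expected counts, which can be fractional, and TPM, per the file headers. Neither strand setting nor annotation release was stated in the labels or headers. GENCODE vM21 symbols matched 45143 of 45706 identifiers.

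Expected counts were rounded. Genes were filtered by edgeR's expression filter by group (15186 genes, 99.928% of counts) and scaled by TMM, and edgeR 4.0.16 (R 4.3.3) fitted 4 group means to all 16 libraries by quasi-likelihood. Tests were adjusted by Benjamini-Hochberg over all tested genes, with a threshold of 0.05. SEs are the log2 change divided by the root of the F statistic. The code was tested on simulated counts. TPM levels describe and were tested only in the limma alternatives. Alternatives were DESeq2 1.42.0, other scaling factors, no filter, limma 3.58.1 on log2(TPM + 1) and log2(TPM + 0.1), a replicate block, each library left out and both libraries of high mitochondrial share left out. Named genes were all expressed members, with values in every library for those called in any comparison and for the 6 with the highest mean TPM, and of the partner list up to 4 called genes of lowest adjusted p per comparison. Some genes that these rules select are not reported here. The members and gene lists were chosen with earlier results of these data known. RSEM divides reads between similar or overlapping genes, so 9 of the 21 expressed genes that overlap another annotated gene are less certain. Among them are Kcnrg, Kcng2, Kcnq5 and Kcnip3.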

Additional observations from a re-analysis of the deposited data

Results flagged for a closer look

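In 64 checks of a gene in a group (16 genes with values in every library, 4 groups), 3 had a library whose gap to the nearest of the others took up more of the group's range than Dixon's 95% critical value, and chance gives about 1 in 20. Kcng2 was at 4.90 TPM in experienced PBS replicate 4, against 0.35 to 0.86 TPM in the other 3 libraries. That library also had the highest mitochondrial share of its group (5.94%) and the highest summed erythroid markers (238 TPM). Kcnk5 was at 6.74 TPM in experienced LPS replicate 4, the library with the fewest counts (7718857) and a mitochondrial share of 7.30%, against 10.1 to 10.8 TPM in the other 3. Kcnd3 was at 0.06 TPM in naive LPS replicate 3 and at 0 in the other 3 libraries, so this gap rests on 3 counts.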

How the results depend on the processing

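Of the 17 calls of a gene in a comparison, each tried under 24 alternatives, 387 of 408 kept their direction and passed, 21 kept their direction without passing and 0 reversed. Some alternatives left out only libraries outside the comparison, which enter it through the shared fit alone, and no call was lost in those. The share kept is therefore no measure of how firm the calls are. The lost calls were those of Kcng2, Kcnk5 and Kcnc1 in naive and of Kcnh2 and Kcnj2 in experienced mice. In naive mice the 11 called genes became 8 to 14 over all alternatives and 8 to 12 when 1 library was left out. In experienced mice the 6 became 11 with DESeq2, 11 without experienced PBS replicate 4 and 11 without both libraries of high mitochondrial share (each time 6 higher and 5 lower), and leaving out 1 library gave 5 to 11. Over all genes 1940 became 2747 with DESeq2, 2292 without experienced PBS replicate 4 and 3360 without both libraries of high share. The cause was not tested. The comparisons of experienced with naive mice and the interaction gave 0 under all 24. A threshold of 1 TPM left 18 expressed genes and one of 0.25 TPM gave 28, while leaving out 1 library gave 20 to 21.

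In the list of genes linked to potassium handling, 8 called in naive mice became 4 with limma on log2(TPM + 1) and 3 on log2(TPM + 0.1). The 6 in experienced mice became 2 without the filter and 1 under each limma setting. Leaving out 1 library, or both of high mitochondrial share, was added for this list after seeing the data. In naive mice it gave 4 without naive PBS replicate 2 or 4, 5 without naive LPS replicate 3, and 14 without experienced LPS replicate 4 or both libraries of high share, a range of 4 to 14. In experienced mice it gave 3 without experienced PBS replicate 1 or 2 and 2 without experienced LPS replicate 1, 2 or 3, a range of 2 to 8. Over all genes, the 3293 called in naive mice became 1880 and 1772 under limma, 2089 without naive PBS replicate 2 and 2135 without replicate 4. The split of 1490 higher and 1803 lower became 1102 and 2046 with upper-quartile factors and 374 and 1506 with limma on log2(TPM + 1), where the median of all genes shifted by −0.09 in naive and −0.13 in experienced mice. The 1940 called in experienced mice (686 higher, 1254 lower) became 1132 and 1107 under limma (178 and 176 higher), 3360 without both libraries of high mitochondrial share, and 1065 to 3157 when 1 library was left out, lowest without experienced PBS replicate 1 and highest without experienced LPS replicate 4. DESeq2 called 2, 2 and 1 genes in the comparisons where edgeR called 0.

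Correlations between the deviations of same-numbered replicates ran from −0.22 to 0.32 over 24 pairs. Between experienced PBS and experienced LPS their mean was 0.15, against −0.04 for replicates of different number. In the other pairs of groups the same-number mean was −0.10 to 0.01. The labels state no pairing, and the numbers were not taken as pairing in the main fit. With the replicate block 10 potassium channel genes passed in naive mice, without Kcnc1, and 6 in experienced mice. Levels under 1 TPM rest on few counts in the smallest libraries, which limits the precision for Kcnd3, Kcnc1, Kcnab1 and Kcne3.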
